A study of Homo sapiens with 13 samples.

Results

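The translation elongation factors EEF1A1, EEF1A2, EEF1B2, EEF1D, EEF1G and EEF2, together with TPT1, PABPC1, HNRNPA1 and GNB2L1, are 10 genes whose mRNAs include well-known nonribosomal members of the 5′ TOP class. They were taken by gene symbol from the tables of a ribosome profiling study, in which 26676 symbols are listed in all, and each of the 10 is present in both tables. All libraries came from MDA-MB-231, an established line of human triple-negative breast cancer cells, and RFs were taken from lysates made with cycloheximide. In 1 experiment cells received 25 nM Silvestrol, an inhibitor of the helicase eIF4A, or the solvent DMSO for 1 or 2 h, and RFs (ribosome-protected fragments) were sequenced at passage 3, with repeats at passage 4 for the 2 h time point only. This experiment also has an untreated RF library and polyadenylated mRNA libraries of the 2 h DMSO and Silvestrol cells, all at passage 3. In the other experiment cells at passage 3 received 200 nM INK128, an inhibitor of the mTOR kinase, or DMSO for 2 h, with 1 RF and 1 total RNA library for each. A characteristics field gives 1 h for the passage 3 library titled as 2 h Silvestrol, and another calls the DMSO mRNA library untreated. The titles were followed in both cases. The control mRNA column of the Silvestrol table names no treatment and was taken as the DMSO library, the only control mRNA library in the labels, and each mRNA change and TE with Silvestrol rests on that match.

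An mRNA of the TOP class starts with a cytosine at its cap and continues with an unbroken tract of pyrimidines. The class holds the mRNAs of nearly all cytosolic ribosomal proteins and of several elongation factors, and cells move these mRNAs in and out of polysomes together as mTOR activity changes. Through this class a growing cell sets how much translation machinery it builds. TE (translational efficiency) is the RF level of a gene divided by its mRNA level.

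Of the 10 genes, 6 matched the RefSeq table of annotated start sites (GRCh38.p14), GNB2L1 under its present symbol RACK1, with 7 start windows among them. EEF1A2, EEF1D, PABPC1 and HNRNPA1 were not matched. The 30 bases from 8 before the annotated start to 22 within the transcript are given because a TOP tract would begin at the ninth base. Capitals mark runs of C and T, at least 5 long, that begin with C. Runs that reach beyond the printed bases are cut at the edge.
EEF1A1 (chr6:73521011-73521040, minus strand): tgaacgttCTTTTTCgcaacgggtttgccg
EEF1B2, first start (chr2:206159601-206159630, plus strand): gtggccccagcctcgaggccgggcgtcttc
EEF1B2, second start (chr2:206159887-206159916, plus strand): CTTCgggtCCTTTTTCCTCTCTTCagcgtg
EEF1G (chr11:62573870-62573899, minus strand): ggcggcttactttgcggcagcgccgagaac
EEF2 (chr19:3985442-3985471, minus strand): tcagcgttCTCTTCCgccgtcgtcgccgcc
TPT1 (chr13:45341162-45341191, minus strand): gagtcggCCTTTTCCgcccgCTCCCCCCTC
GNB2L1 (chr5:181243885-181243914, minus strand): TTTTCTCTCTCTCTTTCactgcaaggcggc

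Read from the annotated start itself, the run of pyrimidines was 7 bases in EEF1A1, EEF2 and TPT1, 9 in GNB2L1 and 16 at the second start of EEF1B2. A run of at least 5 that begins with C at the annotated start is present in 4.07% of all 35116 start windows. EEF1G and the first start of EEF1B2 had no such run, and their longest run within 25 bases of the start was 4 bases. Within 25 bases on either side of the start, a run of at least 5 is common, at 55.5% of windows on the gene's strand and 59.2% on the other strand. In TPT1 the longest run was 15 bases and began 12 bases into the transcript. In GNB2L1 the annotated start falls inside a run of 18 bases. These are matches of letters around annotated starts, and the start used in MDA-MB-231 cells was not measured here.

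The cells carried the markers of their line. VIM, the mesenchymal filament gene that MDA-MB-231 cells express strongly, had 6454 RF RPKM in the 2 h DMSO library of passage 3, and the oestrogen receptor gene ESR1 was at 0. In the Silvestrol table the libraries held from 2652423 to 50315607 counted reads, and the passage 4 RF libraries were the shallowest. The table lists whole-number read counts and RPKM. The INK128 table gives FPKM alone, so its depth is unknown, and with 1 library in each group its differences have no replicate check and no test.

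The RF level of all 10 genes was lower in the INK128 library than in its DMSO library. It was 4.71-fold lower for PABPC1, 3.98-fold for TPT1 and 3.83-fold for EEF1G. EEF1A1, EEF1D, EEF2, GNB2L1 and EEF1B2 were 2.07- to 2.71-fold lower, and HNRNPA1 and EEF1A2 were 1.69- and 1.48-fold lower. Of the 10, 9 passed the filter on low values (a mean of at least 1 FPKM for RFs and for RNA, and no value of 0), and EEF1A2 missed it on its RNA. Of the 3145 genes past the filter 48.1% had lower RFs, as did all 9 members. RFs were lower by 2-fold or more in 8 of the 9, where 3.94% of all genes were. In a bulk lysate, a fall in every cell and a loss from some of the cells cannot be told apart.

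The RNA FPKM of most genes was also lower in the INK128 library. The median log2 RNA change was -1.15 over the 3145 genes, while the median log2 RF change was 0.01. Relative changes, where so named, are therefore given after subtraction of the all-gene median, and z-scores place each log2 ∆TE among all genes in units of their SD (0.65). On this scale the RNA of the 9 genes moved by -0.38 to 0.05, and their TE by -2.04 to -0.76. Without the subtraction, the log2 ∆TE of the 9 genes ran from -0.89 to 0.38, against a median of 1.14 for all genes. It was below 0 for 5 of the 9, where 6.36% of genes were below 0.

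EEF1A1 carries aminoacyl-tRNA to the ribosome and was the member with the most footprints in this experiment. It lies at chr6:74225473-74230755 (hg19, as for every position below). Its RF level was 4110 FPKM with DMSO and 1518 with INK128, and its RNA level was 155 and 61.0 FPKM. Its relative log2 ∆TE was -1.23 (z = -1.71). EEF1A2 (chr20:62119365-62130668), the paralog best known from muscle and neurons, was far lower. It had 14.4 and 9.69 RF FPKM and 0.743 and 0.275 RNA FPKM, and its relative log2 ∆TE of -0.28 rests on RNA values under 1.

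The nucleotide exchange complex that reloads eEF1A with GTP is made of the other EEF1 genes. EEF1B2 (chr2:207024318-207027653), an exchange subunit, had 741 RF FPKM with DMSO and 359 with INK128, beside RNA levels of 21.5 and 8.16. EEF1D (chr8:144661867-144679845), the other exchange subunit, had 290 and 109 RF FPKM, beside 13.1 and 4.52 for RNA. EEF1G (chr11:62327073-62341460), the structural subunit, had 881 and 230 RF FPKM, beside 54.9 and 23.0 for RNA. The relative log2 ∆TE was -0.79 for EEF1B2 (z = -1.03), -1.03 for EEF1D (z = -1.40) and -1.82 for EEF1G (z = -2.62). The relative log2 RNA change of these 3 subunits lay between -0.38 and -0.11, and the wider spread among them lay in the footprints.

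EEF2 (chr19:3976054-3985461) moves the ribosome along by 1 codon after each peptide bond. Its RF level was 537 FPKM with DMSO and 207 with INK128, and its RNA level was 35.2 and 14.1. The relative log2 ∆TE was -1.19 (z = -1.65). EEF1A1 and EEF2, which do the main work of elongation, thus lay close together just past the z-score threshold of -1.5 that the study used.

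The members outside elongation held both ends of the range of the 9 genes past the filter. TPT1 (chr13:45911304-45915297) encodes the translationally controlled tumour protein and had 880 RF FPKM with DMSO and 221 with INK128. Its RNA level was 32.2 and 15.03, and its relative log2 ∆TE of -2.04 (z = -2.96) was the lowest of the 10. PABPC1 (chr8:101715144-101734315), which binds poly(A) tails, had 178 and 37.9 RF FPKM beside 15.5 and 6.06 for RNA (relative log2 ∆TE -2.02, z = -2.94). GNB2L1 (chr5:180663928-180670906), a scaffold protein of the small ribosomal subunit, had 1585 and 701 RF FPKM beside 67.5 and 25.7 for RNA (relative log2 ∆TE -0.93, z = -1.24). HNRNPA1 (chr12:54674488-54679030), a splicing regulator, had 69.2 and 41.0 RF FPKM beside 14.2 and 6.47 for RNA (relative log2 ∆TE -0.76, z = -0.98). EEF1A1, EEF1G, EEF2, TPT1 and PABPC1, 5 of the 9, had z under -1.5, where 6.93% of all genes did. This count depended on the setting. At a minimum of 5 FPKM only TPT1 (z = -1.54) and PABPC1 (z = -1.53) were under -1.5, with 44 of all 906 genes. Median and MAD in place of mean and SD put all 9 under it, with 520 of all 3145 genes. None of the 9 had z above 1.5, where 1.08% of genes did.

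**Figure D1:**
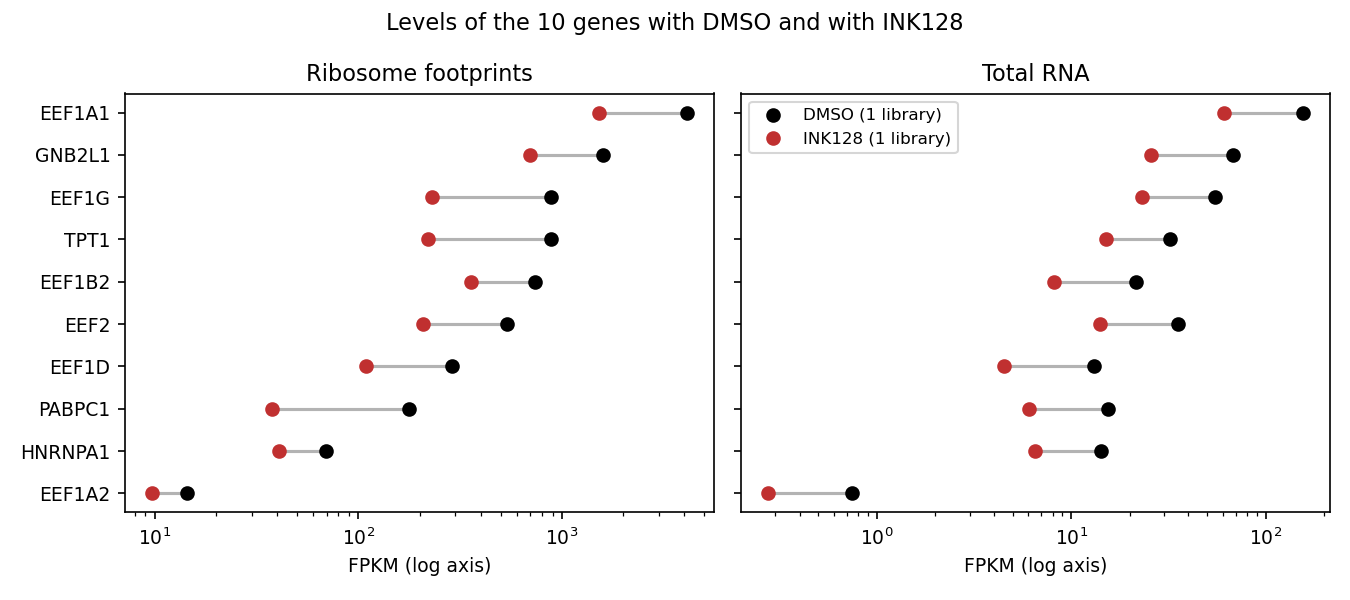
RF level (left) and total RNA level (right) of the 10 genes in FPKM on log axes, with DMSO in black and INK128 in red, 1 library each and no error bar. Every red point lies left of its black point in both panels, and in the right panel the gaps are of like width for all genes.

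TE levels in the DMSO cells of this experiment differed among the genes. The ratio of RF to RNA FPKM was 34.4 for EEF1B2, 27.3 for TPT1, 26.5 for EEF1A1, 23.5 for GNB2L1 and 22.2 for EEF1D, against an all-gene median of 15.4. EEF1G and EEF2 were near that median at 16.04 and 15.27, and PABPC1 and HNRNPA1 were lower at 11.5 and 4.87. With INK128 the all-gene median was 33.5 and EEF1B2, at 43.9, was above it while the other 8 were below. TPT1 went from the 83.0th to the 20.9th percentile of genes, and HNRNPA1 from the 16.7th to the 14.0th.

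Other genes of elongation, termination and their regulation could be followed only in part. Of 24 such genes, 6 passed the INK128 filter, too few to compare with the 6.93% of all genes that had z under -1.5. None of the 6 (EIF5A, VARS, TUFM, DHPS, ETF1 and GSPT1, of which TUFM is mitochondrial) did, and their median log2 RF change was -0.06. EIF5A, which helps ribosomes through poor peptide-bond substrates, had 472 RF FPKM with DMSO and 496 with INK128. EEF2K, the kinase that inhibits eEF2, had 1.72 and 2.08, with RNA under the filter. ETF1, the stop codon release factor, was the lowest of the 6 in RFs at a log2 change of -0.32, and its partner GSPT1 was the highest at 0.48.

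Among 27 other nonribosomal TOP candidates, all past the filter, 26 had lower RFs with INK128 (48.1% of all genes did), 4 by 2-fold or more (3.94% of all genes), and 2 had z under -1.5, a share near the 6.93% of all genes. The 2 were SLC25A6, a mitochondrial ADP/ATP carrier, with RFs of 153 and 43.9 FPKM, and GLTSCR2, a nucleolar protein, with 54.7 and 17.5. The median log2 RF change of this list was -0.61, against -1.42 for the 9 members past the filter and -1.36 for 81 cytosolic ribosomal protein genes. Of the 81 ribosomal protein genes, 53 had z under -1.5, again beside 6.93% of all genes. Of 5 paralogs of PABPC1 and HNRNPA1 past the filter, too few to set against that share, none did. PABPC4 had 48.6 and 34.3 RF FPKM, and HNRNPA1L2, whose sequence is close to that of HNRNPA1 so that reads may be split between them, had 117 and 65.4.

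Silvestrol gave another picture, and part of the family could not be followed in that table. Of the 10 genes, 7 passed its filter (RPKM above 0 at 2 h in passage 3, a mean of at least 1 for RFs and 0.3 for mRNA). EEF1A1, EEF1B2 and EEF1G did not. Of these, EEF1A1 had 8 and 7 RF reads with DMSO and Silvestrol at 1 h, 3 and 3 at 2 h in passage 3, 9 in the untreated library and 0 in both passage 4 libraries under its first entry. The mRNA of that entry had 815 reads with DMSO and 0 with Silvestrol. A second entry of the same symbol held the reverse, with 640 mRNA reads in the Silvestrol library and 0 in the DMSO library, and with 3 and 2 RF reads in the DMSO and Silvestrol libraries of passage 4 and 0 in the others. EEF1B2 had 0 to 2 RF reads in each library and 448 and 89 mRNA reads. The entry of EEF1G with RPKM values in all libraries had 0 to 10 RF reads and 248 and 80 mRNA reads, and another had 0 to 61 RF reads without RPKM in passage 3. No change is drawn for these 3 genes, although EEF1A1 ranked 69th, EEF1G 264th and EEF1B2 293rd of 13121 genes by RF FPKM in the INK128 experiment's DMSO cells.

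The counted part of each coding sequence differed widely among the 10 genes. The authors counted reads that map uniquely and left positions with non-unique reads out of the RPKM, so reads divided by RPKM gives the counted length, here scaled so that the median gene counts its full coding sequence. By this measure 6.32% to 8.46% of the EEF1A1 coding sequence was counted in the RF libraries that gave a value, 12.8% to 18.8% of EEF1B2 and 9.82% to 22.3% of EEF1G. For EEF2 and EEF1A2 nearly all was counted, at 100.5% to 101.1% and 96.9% to 99.2%. GNB2L1 (58.2% to 69.7%), EEF1D (63.9% to 72.2%) and HNRNPA1 (51.4% to 76.2%) lay between.

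The genome offers many copies of these coding sequences. In hg19, every 30-base window of the EEF1A1, EEF1B2 and EEF1G coding sequences has a copy elsewhere with at most 2 mismatches, the limit of the authors' alignment. So do 98.5% of windows of HNRNPA1, 98.2% of PABPC1, 94.1% of TPT1, 42.0% of EEF1D, 30.5% of GNB2L1, 3.96% of EEF1A2 and 0.118% of EEF2. The annotation names 74 pseudogenes after HNRNPA1, 49 after EEF1A1, 15 after TPT1, 13 after PABPC1 and none after EEF2 or EEF1A2. Levels of EEF1A1, EEF1B2, EEF1G, TPT1, PABPC1 and HNRNPA1 in the Silvestrol table are uncertain for this reason. The study's methods state the exclusion for RPKM, not for the FPKM of the INK128 table. How that FPKM treats reads that match several places is not given in the sources used here. The INK128 levels and changes of these genes are therefore uncertain as well.

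**Figure D2:**
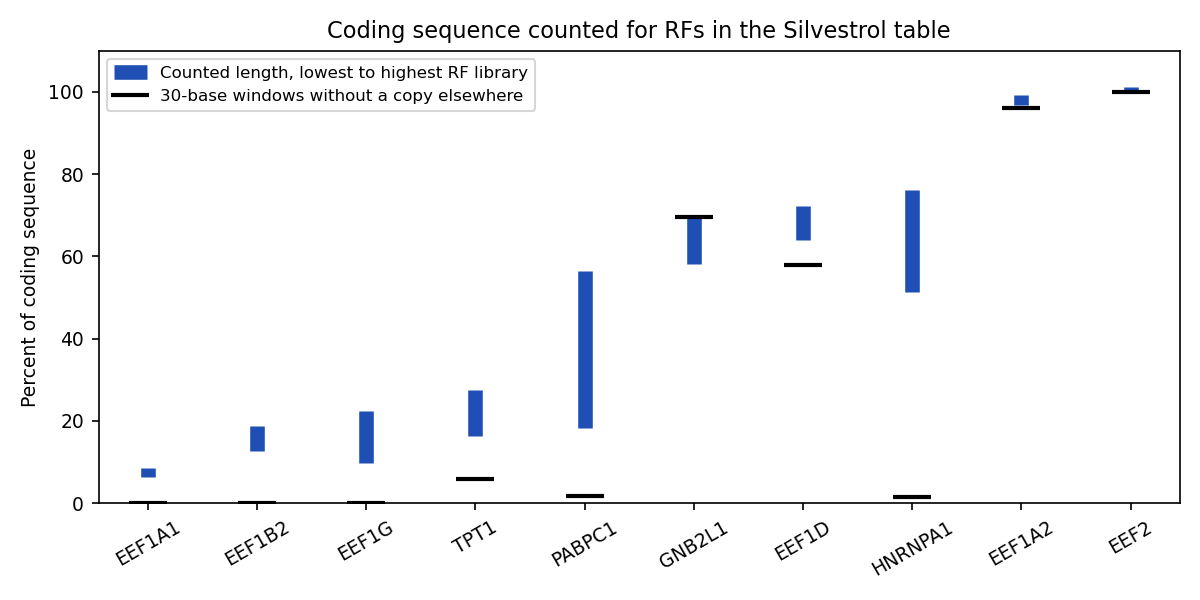
Percent of each gene's coding sequence that was counted for RFs in the Silvestrol table (blue bars, from the lowest to the highest RF library) and percent of its 30-base windows with no copy elsewhere in hg19 (black lines). EEF2 and EEF1A2 are near 100% by both measures, and EEF1A1, EEF1B2 and EEF1G are under 23% by the first and at 0 by the second. The measures lie far apart for HNRNPA1 (51.4% to 76.2% counted, 98.5% of windows with a copy) and PABPC1 (18.3% to 56.6%, 98.2%).

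The counted length of PABPC1 differed most between libraries, by 3.10 times from the lowest to the highest, against 2.27 for EEF1G, 1.68 for TPT1 and 1.48 for HNRNPA1. It was 18.3% of the coding sequence in the library with the least, DMSO at 1 h, the deepest RF library at 31188148 counted reads. It was 56.6% in the library with the most, Silvestrol at passage 4, the shallowest at 2652423. At 2 h it was 1.35 times as long with Silvestrol as with DMSO in passage 3 and 1.34 times in passage 4. For TPT1 the ratio was 1.01 in passage 3 and 1.27 in passage 4. For EEF2 it was 1.00 in both. In each 2 h pair the Silvestrol library was the shallower. It held 12010405 reads against 26176257 with DMSO in passage 3, and 2652423 against 6446356 in passage 4. Whether counted length follows depth or treatment was not tested.

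In RFs per length, the 7 genes with values ran from 2.36 to 3287 RPKM in the 2 h DMSO library of passage 3 and from 10.3 to 2514 in that of passage 4. The order at 2 h with DMSO in passage 3 was GNB2L1, EEF2, TPT1, EEF1A2, PABPC1, EEF1D and HNRNPA1. GNB2L1 ranked 19th and EEF2 52nd of 10606 genes, TPT1 ranked 285th and HNRNPA1 9640th. EEF1A2, PABPC1 and EEF1D lay between 12.1 and 48.4 RPKM in the 2 h DMSO libraries, and EEF1D was the lowest of them in both passages. EEF1A2 and PABPC1 changed places between the passages, so the order of these genes does not stand beyond that spread.

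EEF2 was measured over its whole coding sequence and with the most reads. Its RFs were 1468 RPKM with DMSO and 1306 with Silvestrol at 1 h, 1371 and 1531 at 2 h in passage 3, 853 and 1198 at 2 h in passage 4, and 1387 in the untreated library. Its mRNA was 784 and 590. Silvestrol was thus the lower at 1 h and the higher at 2 h in both passages, while the DMSO values of the passages lay further apart than any treated pair. The edgeR log2 change at 2 h was 0.42 ± 0.28 (SE, 2 libraries a group, adjusted p = 0.37). Without DMSO replicate 2 it was 0.09, and without DMSO replicate 1 it was 0.84. With passage as a block it was 0.45 ± 0.07 (adjusted p = 6.6e-09).

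EEF1A2 had 48.0 and 39.0 RPKM at 1 h, 48.4 and 37.6 at 2 h in passage 3, 23.8 and 22.4 in passage 4 and 49.7 untreated. Its mRNA was 22.1 and 13.8, the lowest ratio of the 7 genes in mRNA. The log2 RF change was -0.13 ± 0.44 (adjusted p = 0.88), and 0.43 was the adjusted p with the passage block. Over the fits that left out 1 library this change ran from -0.63 to 0.53.

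EEF1D had the highest log2 RF change of the 7 genes by edgeR without the block, though not by RPKM in passage 3, where HNRNPA1 was higher (1.16 against 0.48). It had 23.1 and 27.5 RPKM at 1 h, 25.8 and 36.0 at 2 h in passage 3, 12.1 and 24.9 in passage 4 and 24.3 untreated, with mRNA of 30.2 and 32.2. Silvestrol was the higher in all 3 pairs. The log2 RF change was 0.82 ± 0.39 (adjusted p = 0.22), and with the block 0.82 ± 0.15 (adjusted p = 2.7e-07). Leaving out 1 library moved it from 0.41 (without DMSO replicate 2, adjusted p = 0.33) to 1.46 (without DMSO replicate 1, adjusted p = 0.036). Such fits leave 1 library in a group, which is assumed to vary like the libraries of the other group.

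TPT1 was lower with Silvestrol in each pair. It had 452 and 340 RPKM at 1 h, 465 and 336 at 2 h in passage 3 and 338 and 221 in passage 4, but the untreated library, at 345, was level with the treated ones of passage 3. Its mRNA was 613 and 453. The log2 RF change was -0.24 ± 0.18 (adjusted p = 0.41, and 0.13 with the block). With the counted length as an offset it was -0.37 ± 0.30 (adjusted p = 0.45), and with that offset and the block together -0.38 (adjusted p = 0.027).

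PABPC1 had 29.3 and 17.1 RPKM at 1 h, 26.5 and 18.9 at 2 h in passage 3, 27.3 and 23.0 in passage 4 and 36.2 untreated, with mRNA of 71.9 and 87.8. By RPKM it was lower with Silvestrol in every pair. In the edgeR fit of the 2 h read counts the sign was the opposite, at a log2 change of 0.19 ± 0.54 (adjusted p = 0.84, and 0.44 with the block), and with counted length as an offset it was -0.23 (adjusted p = 0.50). At 1 h the log2 change was -0.18 from reads scaled by library totals, against -0.77 by RPKM. No direction at 2 h is therefore given for PABPC1.

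HNRNPA1 was near the floor of the table, with 28 to 108 reads a library. It had 4.64 and 3.83 RPKM at 1 h, 2.36 and 5.29 at 2 h in passage 3, 10.3 and 9.50 in passage 4 and 3.63 untreated, with mRNA of 7.95 and 10.9. By RPKM the passages went opposite ways. Counted length with Silvestrol was 0.91 times that with DMSO in passage 3 and 1.19 times in passage 4. The log2 RF change was 0.46 ± 0.82 (adjusted p = 0.74), and 0.75 ± 0.30 with the block (adjusted p = 0.029). Unblocked fits that left out 1 library gave values from -0.36 to 1.76.

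GNB2L1 varied least. It had 3349 and 2757 RPKM at 1 h, 3287 and 3089 at 2 h in passage 3, 2514 and 2846 in passage 4 and 3014 untreated, with mRNA of 1569 and 1302. By RPKM it was lower in passage 3 and higher in passage 4. The log2 change was 0.19 ± 0.12 (adjusted p = 0.36), and 0.20 ± 0.08 with the block (adjusted p = 0.024). Unblocked fits that left out 1 library gave values from 0.07 to 0.32.

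**Figure D3:**
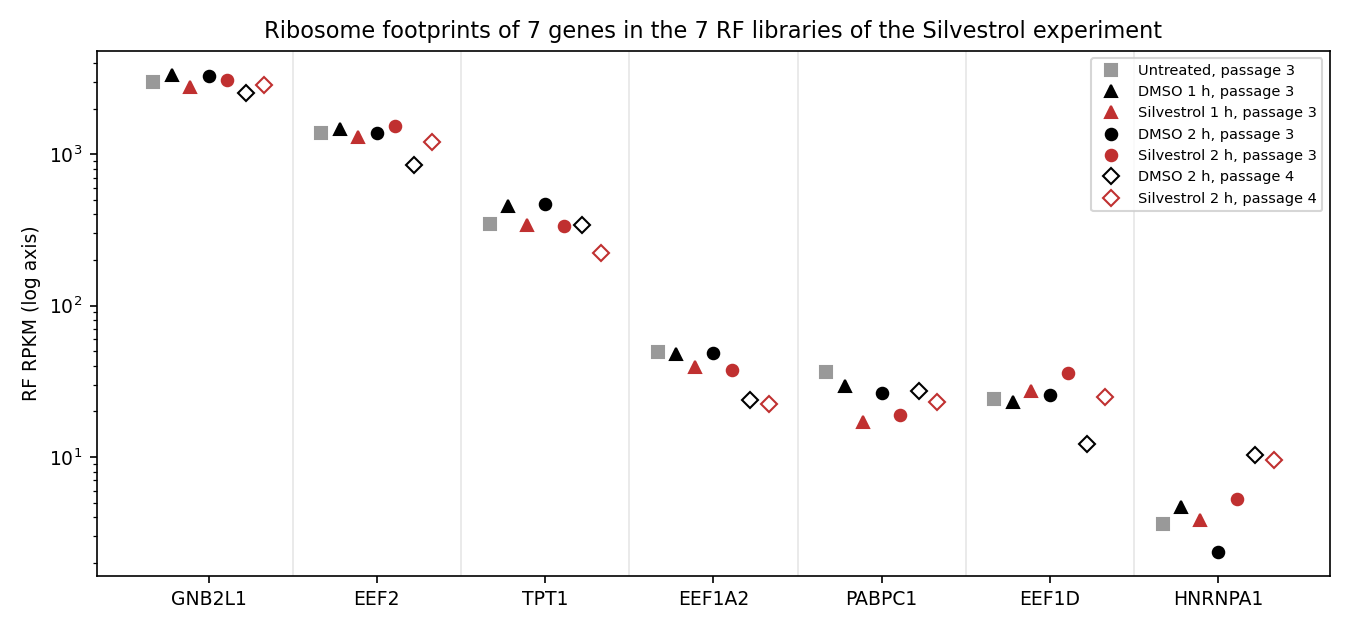
RF RPKM (log axis) of the 7 genes past the filter in each of the 7 RF libraries, with DMSO in black, Silvestrol in red and the untreated library in grey, triangles for 1 h, filled circles for 2 h in passage 3 and open diamonds for 2 h in passage 4. For EEF2, EEF1A2 and EEF1D the distance between the DMSO passages, such as 1371 and 853 RPKM for EEF2, is wider than that between treatments.

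In sum over the 7 genes, none had a changed RF level at 2 h by edgeR without the block, where 9.26% of the 10606 genes tested did. Of all genes 7.33% were lower and 1.93% higher. At an unadjusted p under 0.05 there were also none of the 7, against 3260 of all genes, and DESeq2 called none of the 7 and 1553 of all genes. With passage as a block EEF1D, EEF2, HNRNPA1 and GNB2L1 rose and none fell, where 52.6% of all genes were called, 24.6% higher and 28% lower. That fit leaves 1 residual degree of freedom a gene and takes its spread largely from all genes together. By RPKM, 3 of the 7 were lower in both passages (EEF1A2, TPT1 and PABPC1), where 49.9% of genes were, and 2 were higher in both (EEF1D and EEF2), where 30.5% were. The groups did not overlap in RPKM for TPT1 and PABPC1, against 60.3% of all genes. At 1 h 6 of the 7 were lower with Silvestrol, where 67% of genes were, and those libraries have no replicate. The mRNA was lower for 4 of the 7 (EEF1A2, EEF2, TPT1 and GNB2L1), where 47.5% of genes were lower.

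TE levels with Silvestrol were set against those with DMSO at 2 h in passage 3. The log2 TE of DMSO cells was 1.13 for EEF1A2, 1.07 for GNB2L1 and 0.81 for EEF2, -0.23 for EEF1D, -0.40 for TPT1, -1.44 for PABPC1 and -1.75 for HNRNPA1. After Silvestrol it was 1.44, 1.25, 1.37, 0.16, -0.43, -2.22 and -1.04 in the same order, without subtraction of the all-gene median of -0.28. The z-scores ran from -0.47 for PABPC1 to 1.01 for HNRNPA1, and none of the 7 passed 1.5 in either direction, where 6.28% of genes were below and 4.4% above. With the passage 4 RFs the z-score of HNRNPA1 was -0.28, and those of the other 6 kept their sign, at -0.25 for PABPC1 and 0.12 to 1.30 for the rest. None passed 1.5 there either, where 6.73% of genes were below and 4.71% above. The mRNA libraries had no replicate.

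In the edgeR interaction of RF and mRNA, no gene of the 10606 was called without the block, against 2558 at an unadjusted p under 0.05 and 889 by DESeq2. The log2 ∆TE of EEF2 was 0.95 ± 0.52 (adjusted p = 0.32) and that of EEF1D 0.84 ± 0.66 (adjusted p = 0.48), while EEF1A2 had 0.69 ± 0.77 (adjusted p = 0.63). Leaving out 1 library moved these values from 0.58 to 1.35 for EEF2, from 0.39 to 1.47 for EEF1D and from 0.15 to 1.31 for EEF1A2. With the block EEF2 (0.97 ± 0.18, adjusted p = 0.0018), EEF1D (0.85 ± 0.24, adjusted p = 0.016), EEF1A2 (0.68 ± 0.21, adjusted p = 0.023) and GNB2L1 (0.52 ± 0.17, adjusted p = 0.028) rose, where 43.8% of genes were called, 21.9% higher. TPT1, PABPC1 and HNRNPA1 were not called in either fit. Of 54 ribosomal protein genes past this filter, 28 had a z-score above 1.5 and none below -1.5 in passage 3, where 4.4% of all genes were above and 6.28% below. Their median z-score was 1.61 there and 0.75 with the passage 4 RFs, their median log2 RF change was 0.63 and -0.30, and edgeR without the block called none. With the block 26 were called higher and 1 lower in TE, where 21.9% of all genes were called in each direction. In RFs 18 were called higher and 2 lower, where 24.6% of all genes were higher and 28% lower.

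**Figure D4:**
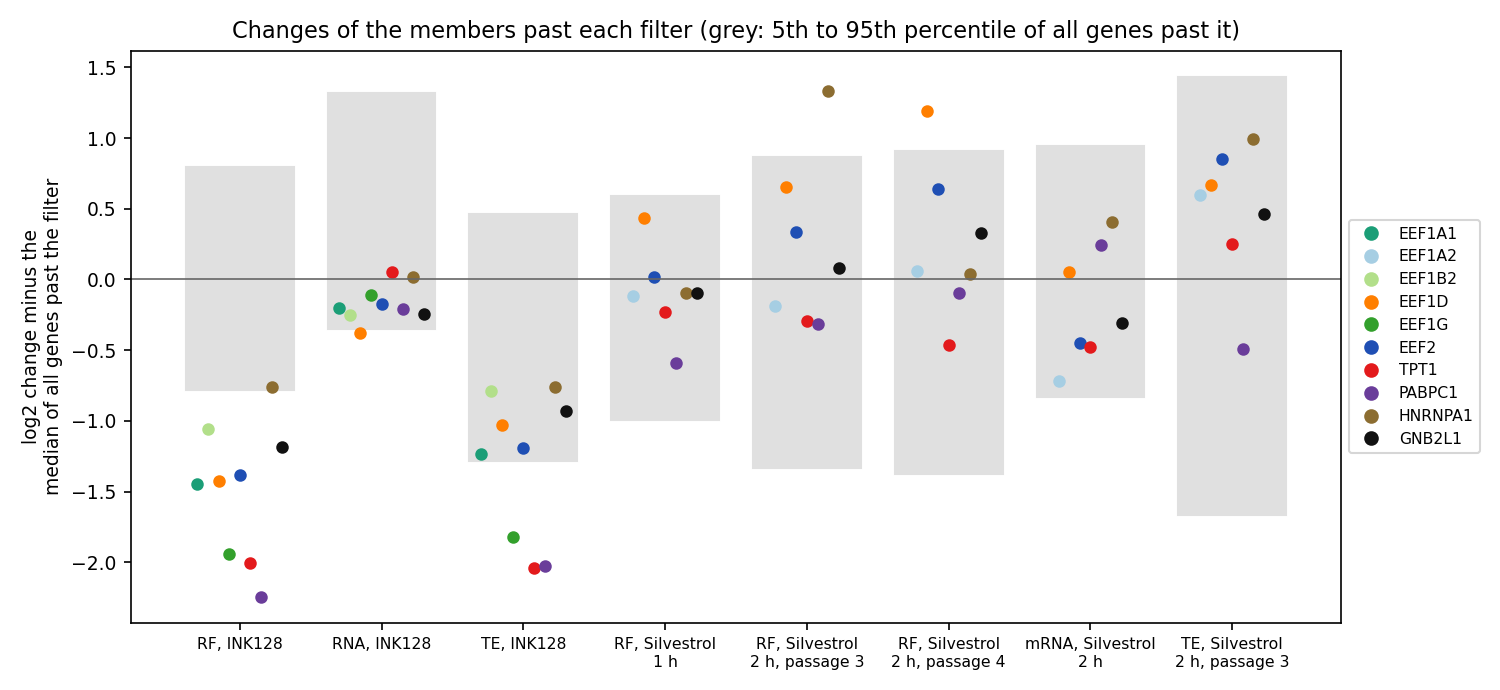
log2 change of each gene past the filter, minus the median of all genes past it, for RFs, RNA or mRNA and TE with each drug. Grey boxes span the 5th to the 95th percentile of all genes (from -0.783 to 0.798 for RFs with INK128), and all members but HNRNPA1 lie below the box for RFs with INK128 while most lie inside the boxes for Silvestrol.

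Side by side, the drugs gave these genes different values, in separate experiments that share no library. EEF2 had a relative log2 ∆TE of -1.19 with INK128 and 0.85 with Silvestrol (passage 3 RFs), GNB2L1 -0.93 and 0.46, EEF1D -1.03 and 0.67, and TPT1 -2.04 and 0.25. Without subtraction of the all-gene medians the values were -0.05 and 0.57 for EEF2, 0.22 and 0.18 for GNB2L1, 0.11 and 0.39 for EEF1D, and -0.89 and -0.03 for TPT1. The signs then differed for EEF2 alone. PABPC1 and HNRNPA1 are not set side by side, since the sign of their Silvestrol value turned with the fit or the passage. The difference between the drugs was not tested, since the tables were normalised apart and INK128 has no replicate.

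The genes whose pattern was most like these were found by distance over 6 log2 changes (RFs at 1 h, RFs at 2 h in each passage and mRNA with Silvestrol, RFs and RNA with INK128) from the median of EEF1A2, EEF1D, EEF2, TPT1 and GNB2L1. The nearest of 2365 genes were GLTSCR2 at 0.585, the collagen-modifying protein gene CRTAP at 0.601, fatty acid synthase FASN at 0.707, and the ribosomal protein genes RPS6 at 0.738 and RPLP2 at 0.790. The median distance of all genes was 1.71. GNB2L1 itself lay at 0.241, EEF2 at 0.420, TPT1 at 1.12 and EEF1D at 1.28. These genes helped to form the median, each value of which was that of GNB2L1 or EEF2, so their distances are not evidence of likeness. PABPC1 and HNRNPA1, which had under 100 reads in a library and did not enter the median, lay at 1.35 and 1.68. EEF1A2 entered it by its Silvestrol reads, with INK128 values that rest on RNA under the filter, and has no distance of its own.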

How the data were processed

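Per the paper's methods, the authors trimmed reads, removed rRNA, aligned with Bowtie (the submitters' processing notes name Bowtie2) to hg19 and UCSC transcripts and used unique reads. The deposited Silvestrol table holds read counts and RPKM, and the deposited INK128 table holds FPKM. The INK128 program is not given in the sources used here. Repeated lines were dropped (38897 to 25758), and a symbol with several entries was represented by the one best covered in RFs. Counts were tested across 10606 genes by edgeR 4.0.16 (quasi-likelihood, TMM, Benjamini-Hochberg, 0.05), with DESeq2 1.42.0 as an alternative. The TE test was the interaction of 4 RF and 2 mRNA libraries. TE z-scores were made from log2 RPKM or FPKM without a pseudocount. Every column was mapped to a sample, the control mRNA column by elimination, since its name gives no treatment. On simulated data edgeR found 182 of 200 genes changed by 2 on the log2 scale in RFs and 77 of 200 in TE. The labels give passages 3 and 4 as shared by DMSO and Silvestrol, and their deviations correlated (r = 0.755 across genes), so blocked values are printed too. Unblocked p-values in RFs measure the spread between these passages within a treatment. Blocked ones rest on how far the treatment change differs between passages, with a spread taken largely from all genes together. The mRNA side of the TE fits has 1 library a treatment and adds no such spread. Named genes are the 10 members, EIF5A, EEF2K, up to 3 lowest and highest of each other list by INK128 ∆TE, and the 5 nearest genes. Members and lists were chosen with earlier results of these data known.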

Additional observations from a re-analysis of the deposited data

Results flagged for a closer look

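EEF2 moved one way at 1 h and the other way at 2 h with Silvestrol, which drew attention to it, and the difference was not tested. Its log2 RF RPKM change was -0.17 at 1 h, 0.16 at 2 h in passage 3 and 0.49 at 2 h in passage 4. Relative to the median of all genes the 1 h change was 0.02. There was 1 pair of libraries at 1 h.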

How the results depend on the processing

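With passage as a block (replicate block), 5582 genes were called in RFs and 4647 in TE, and 4 members in each. Without a filter and with the block these were 5447 and 4645 genes, and again 4 members in each, a pair of fits chosen after seeing the data. With the counted-length offset and the block they were 5467 and 4702 genes, with 5 members in RFs and 4 in TE. DESeq2 called 1553 genes in RFs and 889 in TE, and TE gave 3 genes with filterByExpr and 208 without a filter. Leaving out 1 library gave 0 to 1031 genes in RFs (0 without either Silvestrol library) and 0 to 1069 in TE (1069 without DMSO replicate 1, 477 without DMSO replicate 2), with 0 to 1 members in each, the 1 being EEF1D without DMSO replicate 1.

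Signs turned for 4 members that no unblocked fit called. PABPC1 in RFs was -0.23 with the counted-length offset, -0.24 with offset and block, and -0.49 and -0.24 by RPKM in passages 3 and 4. In TE it was -0.40 with the offset and -0.41 with offset and block, and its z-score from reads scaled by library totals was 0.052. HNRNPA1 in RFs was -0.11 by RPKM in passage 4, and in TE it was 0.23 with the block, 0.22 with block and no filter, 0.064 with the offset and 0.38 with offset and block. Its z-score with passage 4 RFs was -0.28. GNB2L1 was -0.090 by RPKM in passage 3. Over the fits that left out 1 library, the RF changes of EEF1D ran from 0.41 to 1.46, of EEF2 from 0.09 to 0.84, of GNB2L1 from 0.07 to 0.32 and of TPT1 from -0.35 to -0.12. EEF1A2 ran from -0.63 to 0.53 in RFs, PABPC1 from -0.53 to 0.76 in RFs and from -0.55 to 0.65 in TE, and HNRNPA1 from -0.36 to 1.76 in RFs and from -0.92 to 1.18 in TE.

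The median 1 h RF change of the 7 members, -0.28, was -0.087 against the untreated library and -0.10 from reads scaled by library totals, and the median log2 mRNA change, -0.27 without subtraction of the all-gene median, was -0.14 from such reads. The number of members with an INK128 z-score under -1.5 (5 of 9) was 2 with a minimum of 5 FPKM (44 of all 906 genes), 3 at a threshold of -2 (123 of 3145), 9 with median and MAD (520 of 3145, against 218 in the setting reported), and 8 of 10 with an RNA minimum of 0.3 FPKM (396 of 7102), chosen after seeing the data. None was above 1.5 in any of them. The causes were not tested. HNRNPA1 and the 3 genes outside the Silvestrol filter have few counted RF reads, and INK128 has no replicate.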
